A study of Mus musculus with 2 samples.

Results

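The cells described here carried transcripts of Arg1, which encodes arginase 1, together with transcripts of 3 genes that low oxygen induces, Ndrg1, Egln3 and Hilpda. They came from 2 single-cell RNA libraries of live CD45-positive cells sorted from subcutaneous tumors of B16F10, a mouse melanoma line. A barcode was included if it had at least 200 detected genes, at most 10% mitochondrial UMIs, at least 5 Arg1 UMIs and at least 2 UMIs of the 3 hypoxia genes together. A UMI, or unique molecular identifier, counts 1 captured RNA molecule. Further limits removed C1q-high macrophages (C1qa, C1qb and C1qc below 0.2% of UMIs), neutrophils (S100a8 and S100a9 below 1%), T and B cells (at most 1 UMI each of the Cd3 and Cd79 genes) and melanoma cells (Mlana, Pmel, Tyrp1 and Dct below 0.1%). The cells were thus chosen by their own UMI counts, and their difference from any other cells in these libraries is a description with no test. The gate found 244 cells in the control library and 235 in the one labelled knockout. Together they were 479 of the 12815 barcodes kept for depth and mitochondrial content, and of 13817 barcodes in all.

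The control library came from Usp18f/f mice and the other from Usp18f/f LysM-Cre mice, in which Cre expressed from the Lyz2 locus is meant to delete Usp18 in myeloid cells. All hosts were C57BL/6 and carried the floxed Usp18 alleles, and the tumors were taken at day 14. Cells of 4 tumors per group were pooled into 1 library, so no difference between the groups has a replicate, none is tested, and all intervals below are 95% intervals for counting error only. The labels give no age or sex of the mice, and a Lyz2-driven Cre acts in neutrophils and macrophages as well as monocytes.

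Monocytes enter tumors from blood and turn into macrophages there, and those that settle far from vessels meet low oxygen. The transcription factor HIF-1, stabilised when prolyl hydroxylases lack oxygen, then raises genes of glucose uptake, glycolysis, vessel growth and mitochondrial turnover. Arginase 1 splits arginine into ornithine and urea, and arginase-expressing myeloid cells are known in tumors for lowering the arginine that T cells need. Usp18 is an interferon-induced protease that removes ISG15 from proteins and restrains the type I interferon receptor.

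The targeted gene was not lower in the library labelled knockout. Usp18 (chr6:121245906-121270917, GRCm38) gave 20.5 CPM (the usual depth-scaled level, taken over all UMIs of the cell set) in the control cells and 148 CPM in those of the library labelled knockout, 7.21 times as much (5.02 to 10.7). A 3′ tag outside a deleted stretch would still be counted, so this level does not check the deletion. Lyz2 (chr10:117277541-117282272), where Cre is inserted, gave 6493 CPM against 24.2 CPM, which runs with the label.

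The libraries also differed in the sex of their cells. Among the control members, 45 held Xist and no UMI of a Y-linked gene, and 115 held a Y-linked UMI and no Xist. In the library labelled knockout these numbers were 212 and 3. The same library held 54 Y-linked cells among its Arg1-low, hypoxia-low monocytes and 152 among its C1q-high macrophages, and Xist-positive cells made up 98.6% of its hypoxic cells with an assigned sex, against 84.3% and 73.9% of those sets. Values among Xist-positive cells are therefore given beside the main differences between the libraries.

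To describe the hypoxic cells, 4 other sets were gated under the same limits with at least 5000 UMIs per cell, at least 10 UMIs of Tyrobp and Fcer1g and at least 2 of Ccr2, Ly6c2 and Csf1r. "Low monocytes" had at most 1 Arg1 UMI and no UMI of the 3 hypoxia genes (382 cells in each library). "Hypoxia-only" monocytes had at most 1 Arg1 UMI and at least 2 hypoxia gene UMIs (157 and 176 cells, control first here and below). "Arg1-only" monocytes had at least 5 Arg1 UMIs and no hypoxia gene UMI (5 and 18 cells), and C1q-high macrophages had at least 0.2% C1q UMIs (559 and 657 cells). Median depth was 5883 and 6670 UMIs in the hypoxic cells and 6554 and 6365 in the low monocytes. No barcode sequence of a hypoxic cell occurred in both libraries, of 8 that did among all barcodes. A doublet score marked 9 and 4 of the hypoxic cells (3.69% and 1.70%). Among all kept barcodes it marked 5.67% and 4.59%, shares that were set in advance.

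The monocyte name was checked against 18 monocyte and 17 macrophage markers, and the cells held both. Monocyte markers summed to 12933 CPM in the control hypoxic cells and 16990 CPM in those labelled knockout, against 13057 and 17874 CPM in low monocytes and 5629 and 6504 CPM in C1q-high macrophages. Macrophage markers summed to 10032 and 10894 CPM, above the low monocytes (4565 and 5259 CPM) and below the macrophages (16784 and 16832 CPM). The monocyte sum of the hypoxic cells was near that of low monocytes, and their macrophage sum lay between the other sets. A large part of the macrophage sum's excess over low monocytes came from a single marker, Pf4, whose levels are given below. Pf4 was uneven across the hypoxic cells, with no UMI in 76 control cells and 103 cells labelled knockout. At the median it made up 0.097% and 0.020% of a cell's UMIs, and at most 3.41% and 7.26%. Gene by gene, 8 of 18 monocyte markers were higher than in low monocytes in both libraries and 9 were lower in both. By at least 2-fold, 4 were higher and 3 lower, and the medians were -0.71 and -0.14. Ly6c2 and Plac8, given below, were among the lower ones. Of 17 macrophage markers 11 were higher in both libraries and 4 lower, with medians of 0.22 and 0.56.

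Other single markers also parted ways within these sums. Ccr2, the chemokine receptor by which monocytes leave the marrow, was at 703 and 857 CPM in the hypoxic cells and at 1456 and 1384 CPM in low monocytes. UMIs of Ccr2, Ly6c2 and Csf1r were asked of the low monocytes but not of the hypoxic cells. The gates thus set differences in these genes in part. Fn1, fibronectin, was at 3156 and 2504 CPM against 1174 and 834 CPM, and F13a1, a transglutaminase of clotting, was at 1211 and 816 CPM against 424 and 353 CPM. Among macrophage genes Cx3cr1, the fractalkine receptor, was at 36.7 and 26.9 CPM against 216 and 147 CPM. Of the 244 and 235 cells, 160 and 196 also passed the myeloid and dendritic limits set for the comparison cells.

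Markers of other cells were low but not all at 0. The neutrophil genes Ly6g and Ngp, the stromal genes Col1a1, Col3a1 and Dcn and the melanocyte gene Sox10 had no UMI in any of the 479 cells. Neutrophil markers together gave 163 and 65.9 CPM, B-cell markers 14.3 and 7.90 CPM and dendritic markers 84.6 and 103 CPM, with more than 1 dendritic UMI in 5 and 7 cells. The T and NK list gave 306 and 371 CPM, most of it Il7r (290 and 294 CPM), the receptor chain for interleukin 7, while Cd8a was at 0 and 0.527 CPM. Il7r was lower in low monocytes, at 20.3 and 38.4 CPM, and Ms4a4b was at 4.97 and 31.6 CPM in the hypoxic cells.

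Arg1 and the hypoxia genes occurred together. Of all cells within the limits that had at least 5 Arg1 UMIs, 244 of 262 (93.1%) in the control library and 235 of 291 (80.8%) in the library labelled knockout also had at least 2 hypoxia gene UMIs. Among those with at least 5000 UMIs that also passed the myeloid limits, 131 of 139 (94.2%) and 161 of 195 (82.6%) did. Among monocytes with at most 1 Arg1 UMI under the same depth minimum and limits, 23.4% and 25.6% did. Depth above that minimum was not matched. Read the other way, 35.1% and 35.7% of the cells with at least 2 hypoxia gene UMIs were hypoxic cells of the gate. The rule sets these numbers in part, and they are given as description.

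Just inside and just outside the Arg1 limit, cells were close in Hilpda, a gene of the rule on which both sets had been gated. Cells with 5 or 6 Arg1 UMIs (8 and 24 cells) had 1305.6 and 1326 CPM of Hilpda, and cells just outside, with 3 or 4 Arg1 UMIs (19 and 29 cells), had 1075 and 1003 CPM. Thbs1, which encodes thrombospondin 1, was at 7602 and 2917 CPM just inside and at 3203 and 3304 CPM just outside. Among other genes outside the rule, Cxcl3 was at 406 and 681 CPM just inside and at 61.0 and 296 CPM just outside. Vegfa was at 696 and 358 CPM against 236 and 338 CPM, and Spp1 was at 899 and 4035 CPM against 6359 and 6662 CPM. Across the members Arg1 ran from 5 to 215 UMIs with a median of 35 in the control library, and from 5 to 270 with a median of 22 in the library labelled knockout.

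The share of hypoxic cells among kept barcodes was 3.44% (3.03 to 3.89) in the control library and 4.10% (3.60 to 4.65) in the one labelled knockout, a ratio of 1.19 (0.992 to 1.43). Among cells with at least 10 UMIs of Tyrobp and Fcer1g within the lymphoid, neutrophil and melanoma limits, the shares were 8.58% and 8.55%. With each deep cell thinned to 5000 UMIs and the Arg1 and hypoxia minimums lowered to 2 and 1, they were 7.18% and 7.29%. Within Xist-positive cells the shares were 2.88% and 5.77%, a ratio of 2.0 (1.45 to 2.83), and within Y-linked cells they were 4.15% and 0.522%. Over all kept cells the interval of the ratio included 1, and within each sex the shares differed in opposite directions. On the log2 scale the ratio over all kept cells was 0.25, and it was -0.27 (-0.55 to 0.02) with a mitochondrial limit of 5%. With only hypoxic cells of at least 5000 UMIs counted it was 0.41 (0.09 to 0.72), and with those that passed the myeloid and dendritic limits 0.60 (0.29 to 0.91). These intervals excluded 0, but both settings limited the hypoxic cells only and left all kept barcodes as the denominator. Median depth of the kept barcodes was 2840 and 4682 UMIs. Hypoxic cells of at least 5000 UMIs were 166 of 2521 and 178 of 2731 kept barcodes that deep. Those within the myeloid and dendritic limits were 160 of 1994 and 196 of 2529 kept barcodes that passed them. Counting error leaves out the spread between mice, which pooling hides.

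Beyond the 4 genes of the rule, the hypoxic cells were high in many other low-oxygen genes. Relative to low monocytes, 283 of 8775 genes (3.23%) were at least 2-fold higher in both libraries and 316 (3.6%) were at least 2-fold lower. These are ratios of (CPM + 5) over genes with at least 20 UMIs in each library's pair of cell sets, and nothing is read from the counts since the gate chose the cells by that contrast. The median gene stood at a log2 ratio of -0.23 in the control library and -0.17 in the one labelled knockout, and the gene values below are to be read against that shift.

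Of 32 measured genes of the hypoxia response list, 23 were at least 2-fold higher in both libraries and 1 was lower. The list median was 2.09 on the log2 scale in the control library and 1.60 in the one labelled knockout. Vegfa, the main growth factor for vessels, was at 523 CPM in the control hypoxic cells and 6.76 CPM in control low monocytes, and at 339 and 19.9 CPM in the library labelled knockout. Bnip3, which marks mitochondria for removal, was at 681 against 32.0 CPM and at 459 against 43.2 CPM. Ero1l, an oxidase of protein folding, was at 1184 against 47.3 CPM and at 504 against 52.8 CPM. All 3 stood higher in both libraries, and by more in the control library.

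Other members of the list covered several roles. Mxi1, which antagonises Myc, was 3.53 and 3.40 higher on the log2 scale, and Slc2a1, the glucose transporter, was 3.04 and 2.26 higher. Egln1, the oxygen-sensing prolyl hydroxylase, was 2.30 and 2.07 higher, and Adm, the vessel-widening peptide adrenomedullin, was at 30.5 and 27.4 CPM against 0.356 and 0 CPM. The exception was Ppfia4, a liprin, at 7.46 and 7.90 CPM in the hypoxic cells and 58.7 and 50.2 CPM in low monocytes. Pfkfb4, a regulator of glycolysis, was also lower in both libraries (-0.72 and -0.76). Car9, often used as a hypoxia marker in tumor cells, showed next to no difference (0.02 and -0.06). A separate list of HIF subunits and regulators, without Egln1 and Egln3, had no gene of 5 measured that was 2-fold different in both libraries. Hif1a, the oxygen-regulated HIF-1 subunit, was at 369 and 336 CPM against 232 and 231 CPM.

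**Figure D1:**
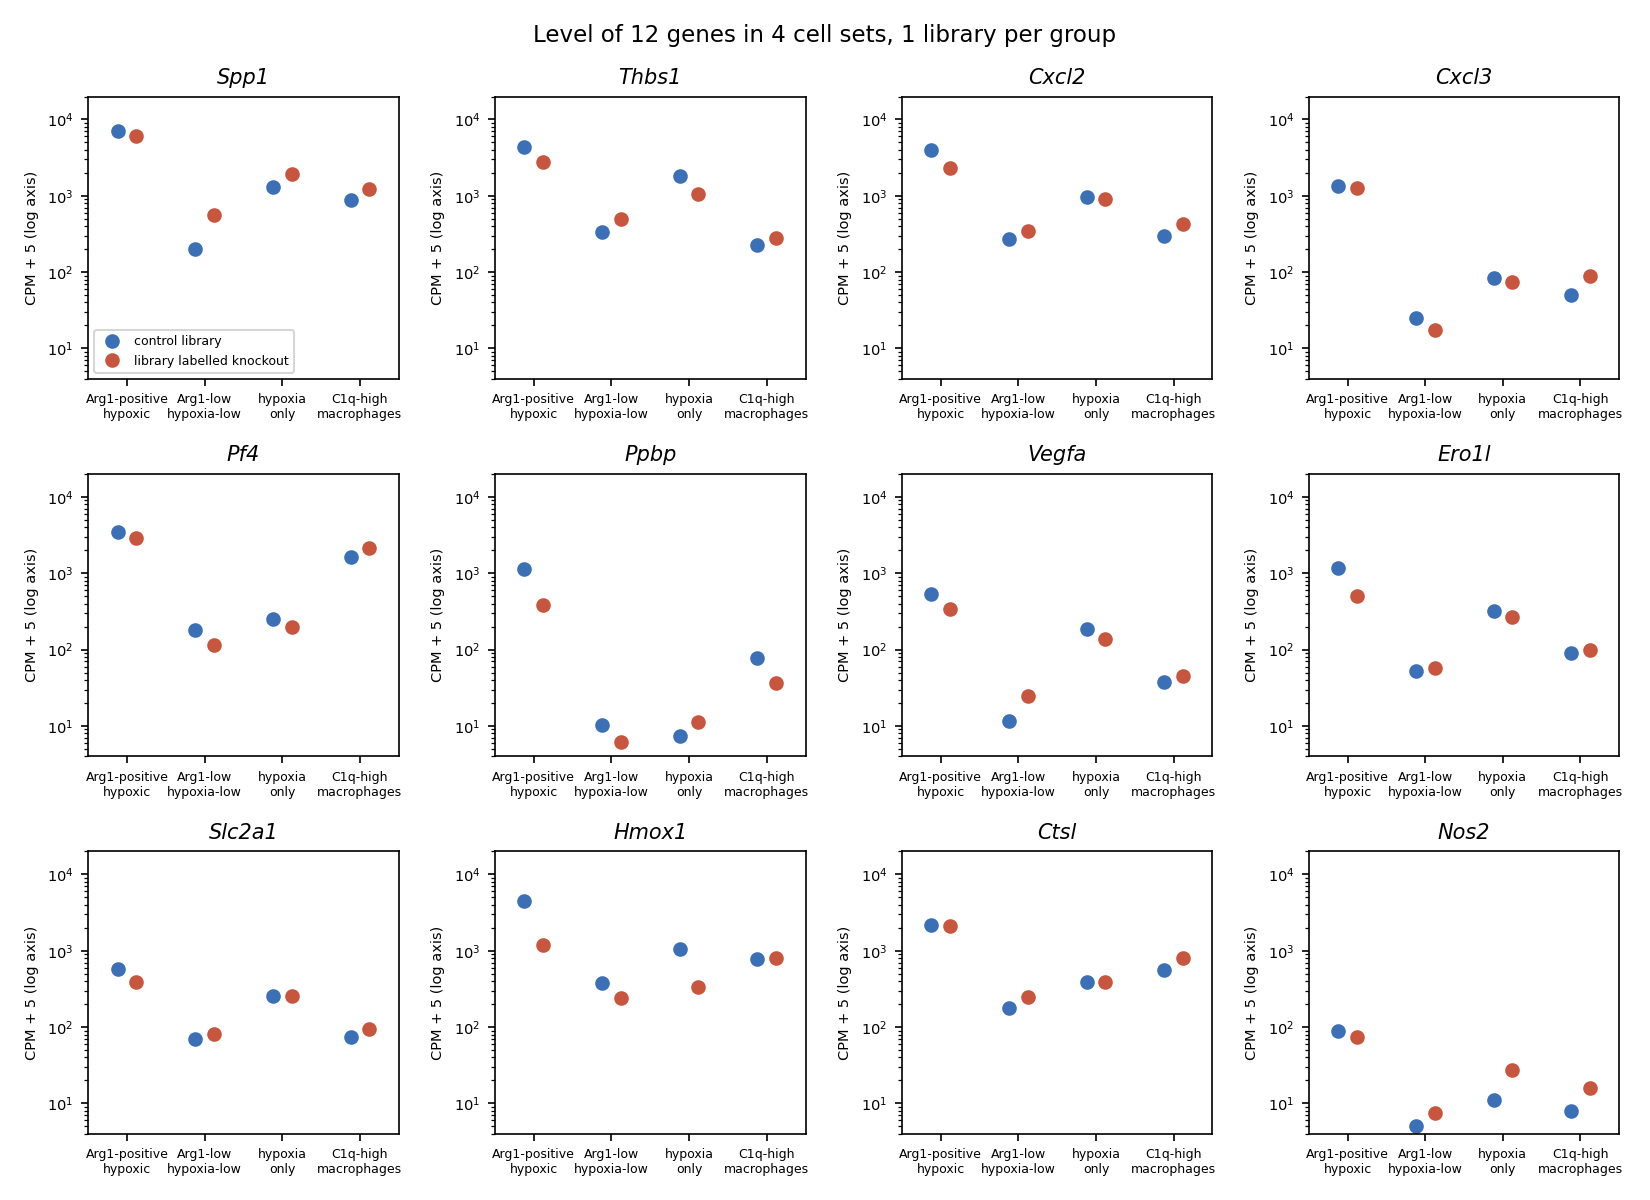
CPM + 5 on a log axis for 12 genes in the Arg1-positive hypoxic cells and 3 comparison sets, with 1 point per library and no error bars because each group is 1 library. In both libraries the hypoxic cells hold the highest level of every gene shown, from Nos2 (83.9 and 69.0 CPM) to Spp1 (7129 and 6050 CPM).

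HIF-1 binds DNA at a short core, ACGTG or GCGTG, and the 250 bases before the start site of listed genes were searched for it on both strands in RefSeq promoter windows (GRCm38.p6). Of 41 genes, the hypoxia list with the 3 hypoxia genes of the rule, 33 had a window, and 30 of these (90.9%) held a core in at least 1 window, as did 17 of 21 glycolysis genes (81.0%). Among all 27025 genes of the table, 41.5% did. The windows of a gene of the rule and of a pair of genes high in the cells are shown, because they span 1 core to several; capitals mark the cores, which overlap where both strands match. Each reads 5′ to 3′ towards the start site on the minus strand.
Egln3: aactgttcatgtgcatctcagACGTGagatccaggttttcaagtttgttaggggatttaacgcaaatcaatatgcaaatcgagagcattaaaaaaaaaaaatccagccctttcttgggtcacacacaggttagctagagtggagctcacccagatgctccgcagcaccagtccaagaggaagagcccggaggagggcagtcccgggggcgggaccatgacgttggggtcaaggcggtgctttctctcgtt
Bnip3: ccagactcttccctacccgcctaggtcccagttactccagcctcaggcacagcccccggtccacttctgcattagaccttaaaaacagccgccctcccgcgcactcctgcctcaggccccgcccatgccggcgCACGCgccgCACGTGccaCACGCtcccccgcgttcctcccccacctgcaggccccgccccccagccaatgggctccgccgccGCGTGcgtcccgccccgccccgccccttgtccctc
Ero1l: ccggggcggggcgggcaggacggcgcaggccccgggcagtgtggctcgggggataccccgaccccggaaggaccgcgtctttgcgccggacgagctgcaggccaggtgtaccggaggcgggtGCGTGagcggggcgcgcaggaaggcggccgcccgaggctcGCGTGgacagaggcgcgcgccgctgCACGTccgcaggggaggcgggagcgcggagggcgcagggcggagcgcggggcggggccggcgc
Egln3 lies at chr12:54203875-54204124, Bnip3 at chr7:138909507-138909756 and Ero1l, named Ero1a in RefSeq, at chr14:45318573-45318822. The 5 matches of Bnip3 lie within 117 bases of the start, where a CACGTG palindrome counts on both strands. Matches are a description of these letters and do not show binding.

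Glycolysis genes were high along with the hypoxia genes, and respiration genes were not. Of 19 measured glycolysis genes, 14 were at least 2-fold higher in both libraries and none was lower by that much, with list medians of 1.76 and 1.41. Gapdh was at 5827 CPM in control hypoxic cells against 1358 CPM, and at 4625 against 1594 CPM in the library labelled knockout. Gbe1, the glycogen branching enzyme, was 3.27 higher in the control library and 1.26 higher in the other. Pfkp, a phosphofructokinase form, was close to level (0.48 and 0.36), and Ldhb, the lactate dehydrogenase chain of oxidative tissue, was lower (-0.55 and -1.38). The 20 respiration genes had medians of -0.51 and -0.28, and 18 of them were lower in both libraries, none by 2-fold in both. Of these, Idh3a, a subunit of the citric acid cycle enzyme isocitrate dehydrogenase, was at 13.1 and 22.1 CPM against 47.6 and 42.8 CPM.

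Few other genes of arginine use were high beside Arg1. Nos2, the inducible nitric oxide synthase, which uses the same substrate, was at 83.9 CPM in control hypoxic cells and had no UMI in control low monocytes, at least 78.7-fold higher against a floor of 3 UMIs in that set. In the library labelled knockout it was at 69.0 against 2.58 CPM. It came from few cells, 48 of 244 and 43 of 235. Arg2, the mitochondrial arginase, was at 26.1 and 36.3 CPM against 3.56 and 5.17 CPM, and Slc7a2, an arginine transporter, was at 22.4 and 49.5 CPM against 1.78 and 2.58 CPM. Slc7a1, the other arginine transporter measured, was lower (13.7 and 26.9 against 40.9 and 42.5 CPM). Those 3 were the ones of 15 measured genes of the arginine and polyamine list to be 2-fold higher in both libraries, and the list medians were 0.29 and 0.09.

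Genes of the extracellular matrix and of clotting formed the next large group. Of 26 measured genes, 13 were at least 2-fold higher in both libraries and none 2-fold lower, with medians of 1.11 and 1.05. Spp1, osteopontin, was at 7129 against 195 CPM in the control library and at 6050 against 564 CPM in the other. Thbs1, an adhesion protein that restrains vessel growth and activates TGF-beta, was at 4391 against 334 CPM and at 2730 against 497 CPM. The metalloproteinase genes Mmp12 (2.93 and 5.46) and Mmp13 (3.76 and 3.99) were higher in both libraries. Mmp12 had UMIs in 65 and 63 cells and Mmp13 in 31 and 40 cells, so both levels rest on a minority of the cells. Lox and Tgfbi did not follow: Lox had no UMI and Tgfbi was lower, by -0.87 and -0.22. Inhba, the activin A chain, was at 51.0 CPM against 0.356 CPM, which is 1 UMI, and at 168 against 8.86 CPM. Its UMIs came from 30 and 44 cells.

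The hypoxic cells were also high in several ligands of CXCR2. Cxcl3, a ligand of this neutrophil receptor, was at 1325 and 1265 CPM against 20.3 and 12.6 CPM in low monocytes. Cxcl2, of the same family, was at 3981 and 2326 CPM against 264 and 339 CPM. Ppbp, also a CXCR2 ligand and stored in platelets, was at 1128 and 376 CPM against 5.33 and 1.11 CPM, and Pf4, the platelet factor encoded next to it, was at 3498 and 2888 CPM against 173 and 111 CPM. The 7 platelet structure genes summed to 1.24 and 4.21 CPM in these cells, with Gp1ba, Gp1bb, Gp6 and Tubb1 at 0 in both libraries; that list was added after Ppbp and Pf4 were seen. Of the UMIs among the kept barcodes of each library, the hypoxic cells held 42.9% and 55.4% for Cxcl3, 65.8% and 56.3% for Ppbp and 26.4% and 26.2% for Cxcl2.

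Most genes of the inflammatory list were higher, but not all. Of 19 measured, 14 were higher in both libraries and 5 lower in both, with medians of 1.27 and 0.83. At least 2-fold higher in both were 6 of them: Cxcl1, Cxcl2, Cxcl3, Ptgs2, Il1rn and Cd14. None was 2-fold lower in both. Ptgs2, the prostaglandin synthase COX-2, was 2.52 and 2.47 higher, and Il1rn, the interleukin 1 receptor antagonist, was 2.19 and 2.03 higher. Il1b was not higher (-0.38 and -0.03), nor was Tnf (-0.16 and -0.54). Among the monocyte chemokines, Ccl6 (1.52 and 1.99), Ccl9 (1.45 and 1.86), Ccl2 (1.21 and 1.36), Ccl7 (1.63 and 1.90) and Ccl24 (4.29 and 2.61) were higher in both libraries. For Ccl24, 1 low monocyte of the library labelled knockout held 60.9% of that set's 215 UMIs. Cxcl9, an interferon-gamma target, had no UMI in the control hypoxic cells and was at 26.3 CPM in the others, against 210 and 219 CPM in low monocytes.

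Several iron and haem genes were high, and more so in the control library. Fth1, the ferritin heavy chain, was at 29325 and 19955 CPM against 5868 and 7392 CPM. Hmox1, haem oxygenase 1, was at 4440 and 1170 CPM against 368 and 233 CPM. Mt2, a metallothionein, was at 588 against 4.27 CPM in the control library and at 144 against 42.8 CPM in the library labelled knockout. Of 18 measured redox and iron genes, 6 were 2-fold higher in both libraries and 1, Hpgd, was 2-fold lower. Of 16 lysosome and lipid genes, 8 were at least 2-fold higher in both libraries and 1 was at least 2-fold lower. The higher ones included Ctsl (3.61 and 3.12), the scavenger receptor Cd36 (3.48 and 2.58) and the cholesterol exporter Abca1 (3.93 and 2.56).

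Antigen presentation genes were lower. All 9 MHC class II genes were lower in both libraries and 5 were at least 2-fold lower in both, with list medians of -1.70 and -1.04. Ciita, the transactivator of the class II genes, was at 13.7 and 15.3 CPM against 121 and 97.1 CPM. H2-Aa, an MHC class II chain, was at 1268 and 1476 CPM against 3479 and 2574 CPM. Beyond this list, Tmem176b was at 14.9 and 14.8 CPM against 185 and 156 CPM, and Tmem176a was at 7.46 and 10.0 CPM against 135 and 116 CPM. Itgal, the integrin chain LFA-1 alpha, was at 17.4 and 31.1 CPM against 181 and 177 CPM. Cd209a, a lectin of monocyte-derived dendritic cells, was at 14.3 and 23.7 CPM against 312 and 226 CPM, and its UMIs in low monocytes came from 94 and 62 of 382 cells. Ccl1 was at 0 against 87.8 and 18.8 CPM, but 1 low monocyte held 86.6% of the control UMIs and 1 held all of those in the other library.

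**Figure D2:**
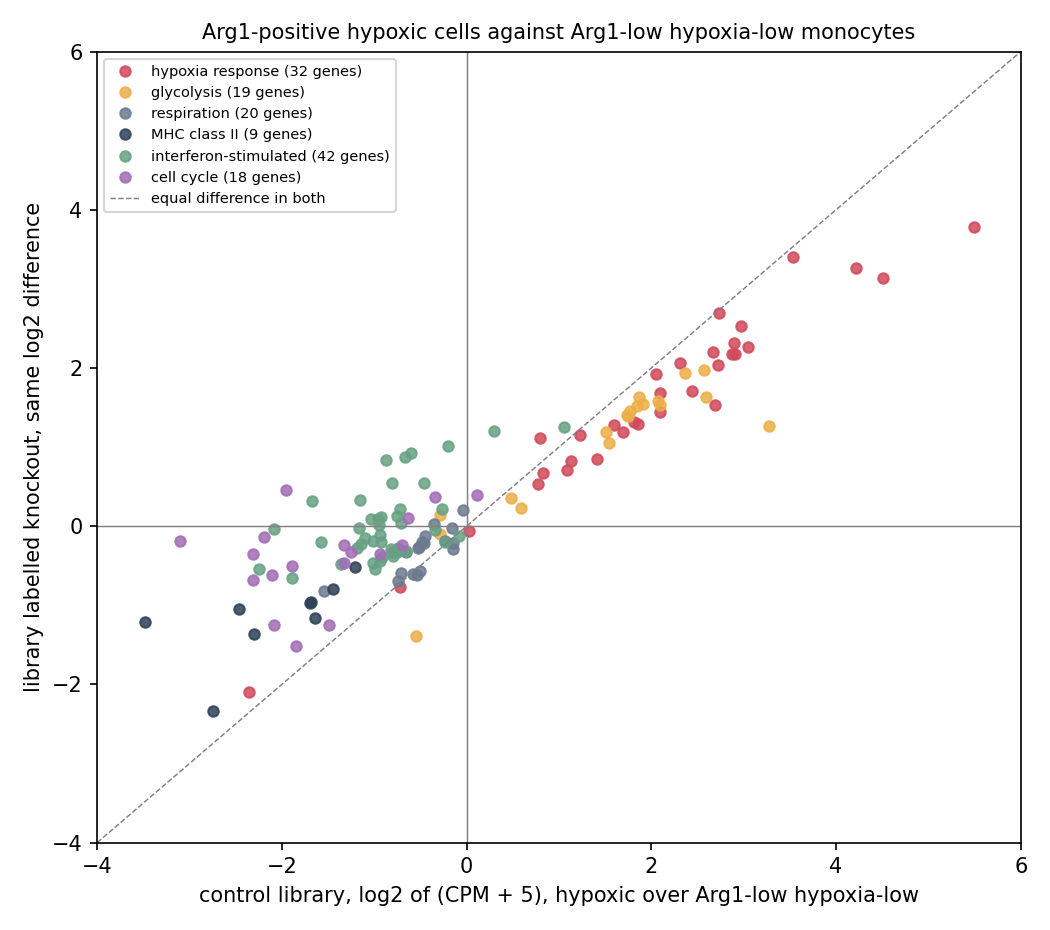
Log2 ratio of (CPM + 5) between Arg1-positive hypoxic cells and low monocytes, control library on the x axis and the library labelled knockout on the y axis, 1 point per measured gene of 6 lists. Hypoxia response and glycolysis genes lie at the upper right, MHC class II genes (medians -1.70 and -1.04) at the lower left, and interferon-stimulated genes are lower on the x axis (median -0.92) than on the y axis (median -0.08).

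Compared with hypoxia-only monocytes, which express the same 3 hypoxia genes without Arg1, fewer genes differed. Of 7857 genes, 106 (1.35%) were at least 2-fold higher in both libraries and 108 (1.37%) lower. The hypoxia list stood at 0.98 and 0.63, with 28 of 31 genes higher in both libraries and 6 by 2-fold, and glycolysis stood at 0.97 and 0.51 with none of 18 at 2-fold in both. Several genes stood far higher than in hypoxia-only cells: Ppbp by 7.27 and 5.06, Pf4 by 3.81 and 3.86, and Mmp13 by 3.28 and 3.60. Cxcl3 was 4.00 and 4.08 higher, against 5.72 and 6.18 relative to low monocytes. Vegfa was 1.51 and 1.31 higher and Slc2a1 1.17 and 0.60 higher. MHC class II genes were lower, with medians of -1.78 and -1.24, and macrophage markers had medians of 0.37 and 0.89, against 0.22 and 0.56 relative to low monocytes. The interferon-stimulated median was -0.61 in the control library and 0.19 in the other. The hypoxia-only cells had been gated on as few as 2 hypoxia gene UMIs, and a graded level of the same genes was not separated from the presence of Arg1.

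Against C1q-high macrophages, 275 of 10015 genes (2.75%) were at least 2-fold higher in the hypoxic cells in both libraries and 477 (4.76%) lower. Cell cycle genes were the clearest group on the lower side: all 19 measured were lower in both libraries, 17 of them by 2-fold, with medians of -3.19 and -2.19. After thinning to 1000 UMIs, 0.840% and 1.71% of the hypoxic cells had at least 3 UMIs of these genes, against 23.3% and 21.9% of the macrophages (unthinned depths differ, with macrophage medians of 10484 and 12010 UMIs). Of 17 macrophage markers, 8 were 2-fold lower in both libraries, but Pf4 was higher (1.09 and 0.44). The hypoxia list was higher by 1.92 and 1.41. MHC class II genes were lower in the control library (median -0.79) and higher in the library labelled knockout (0.48).

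Single hypoxic cells varied widely in these genes. Arg1 made up 0.644% of a cell's UMIs at the median in the control library, with quartiles of 0.320 and 1.15%, and 0.360% in the library labelled knockout, with quartiles of 0.156 and 0.619%. Spp1 ranged from 0 to 7.18% and from 0 to 5.12%, and was at 0 in 69 and 36 cells. Ppbp was restricted further: 67 and 33 cells had a UMI, and the highest 10% of cells held 82.6% and 98.7% of its UMIs. Hmox1 was broad in the control cells, at 0 in 9 of them and with 36.7% of UMIs in the highest 10% of cells, and narrower in the library labelled knockout, where 61.3% lay in that share of cells. Free RNA sets a floor for such shares. In B cells, gated by Cd79 and thinned to 1000 UMIs like the hypoxic cells, Arg1 was seen in 0 and 0.258% of cells, Spp1 in 1.06 and 3.61% and Cxcl3 in 0.407 and 0.258%, against 95.8 and 91.5%, 55.04 and 68.8%, and 38.7 and 24.8% of the hypoxic cells.

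**Figure D3:**
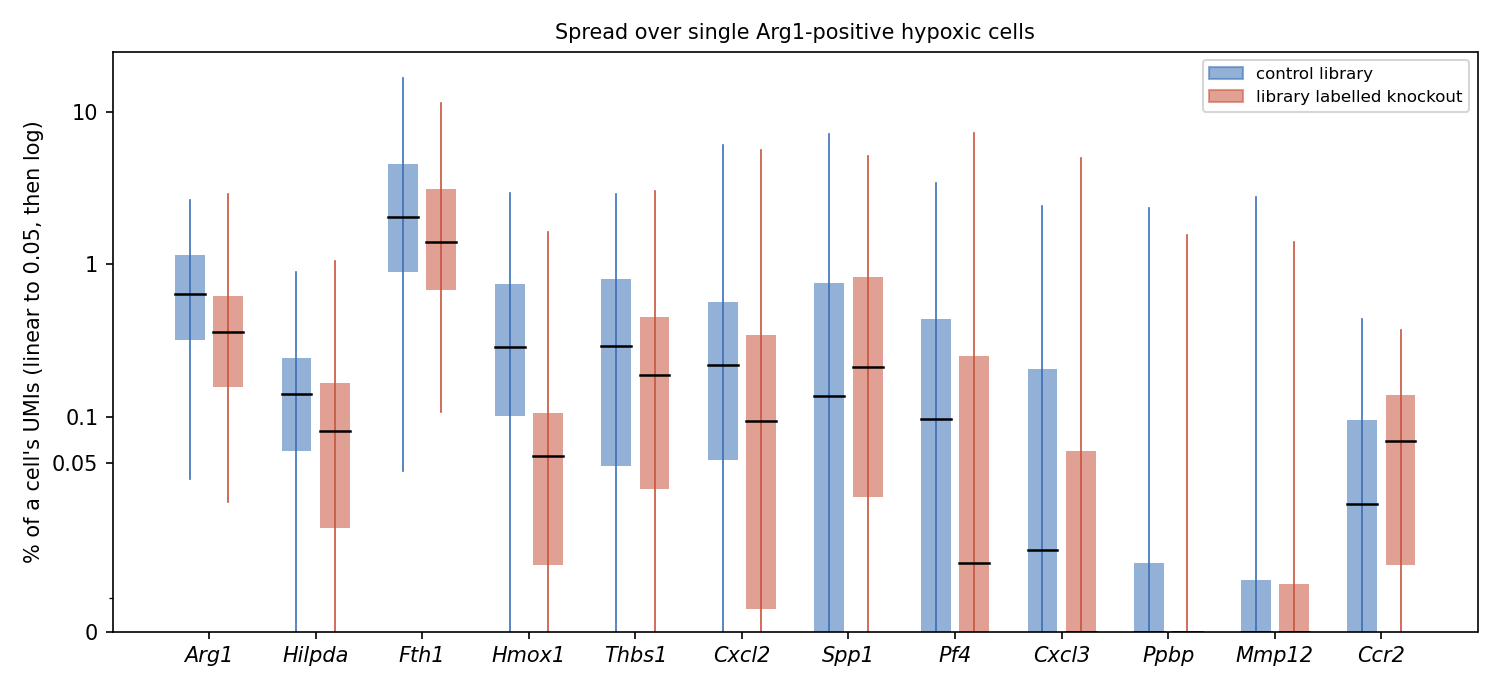
Percentage of a cell's UMIs from each of 12 genes over the 244 control and 235 knockout-labelled hypoxic cells, on an axis linear to 0.05% and logarithmic above. Boxes span the quartiles, black bars the medians and lines the lowest to the highest cell; Fth1 is in every cell, while the upper quartile of Ppbp in the library labelled knockout is 0.

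Within the hypoxic cells, thinned to 2000 UMIs (233 and 226 cells), several sets of genes varied together in both libraries. Spearman's rho is given as a description, since cells of 1 library share a pool and a depth. The low-oxygen genes varied together to unlike degrees. Hilpda, a gene of the rule, had rho of 0.41 and 0.36 with Ero1l and of 0.34 and 0.31 with Gapdh. Outside the rule, rho was 0.33 and 0.27 between Ero1l and Slc2a1 and 0.42 and 0.14 between Ero1l and Gapdh. It was 0.19 and 0.15 between Slc2a1 and Gapdh and 0.13 and 0.12 between Bnip3 and Slc2a1. Arg1 went with Cxcl3 (0.42 and 0.29), Pf4 (0.45 and 0.24) and Ctsl (0.35 and 0.28). Its rho with Hilpda was 0.26 and 0.16, between genes whose lower ends the gate removed. Among the Ccl genes, Ccl2 went with Ccl7 (0.58 and 0.78) and Ccl6 with Ccl9 (0.53 and 0.61), while Hilpda went slightly against Ccl2 (-0.19 and -0.10). MHC class II genes went together (Cd74 with H2-Aa, 0.80 and 0.78) and against Arg1 (Cd74, -0.23 and -0.29). Ccr2 went against Fth1 (-0.38 and -0.42). Most of these rho values are weak, and with sparse counts a rho near 0 says little.

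**Figure D4:**
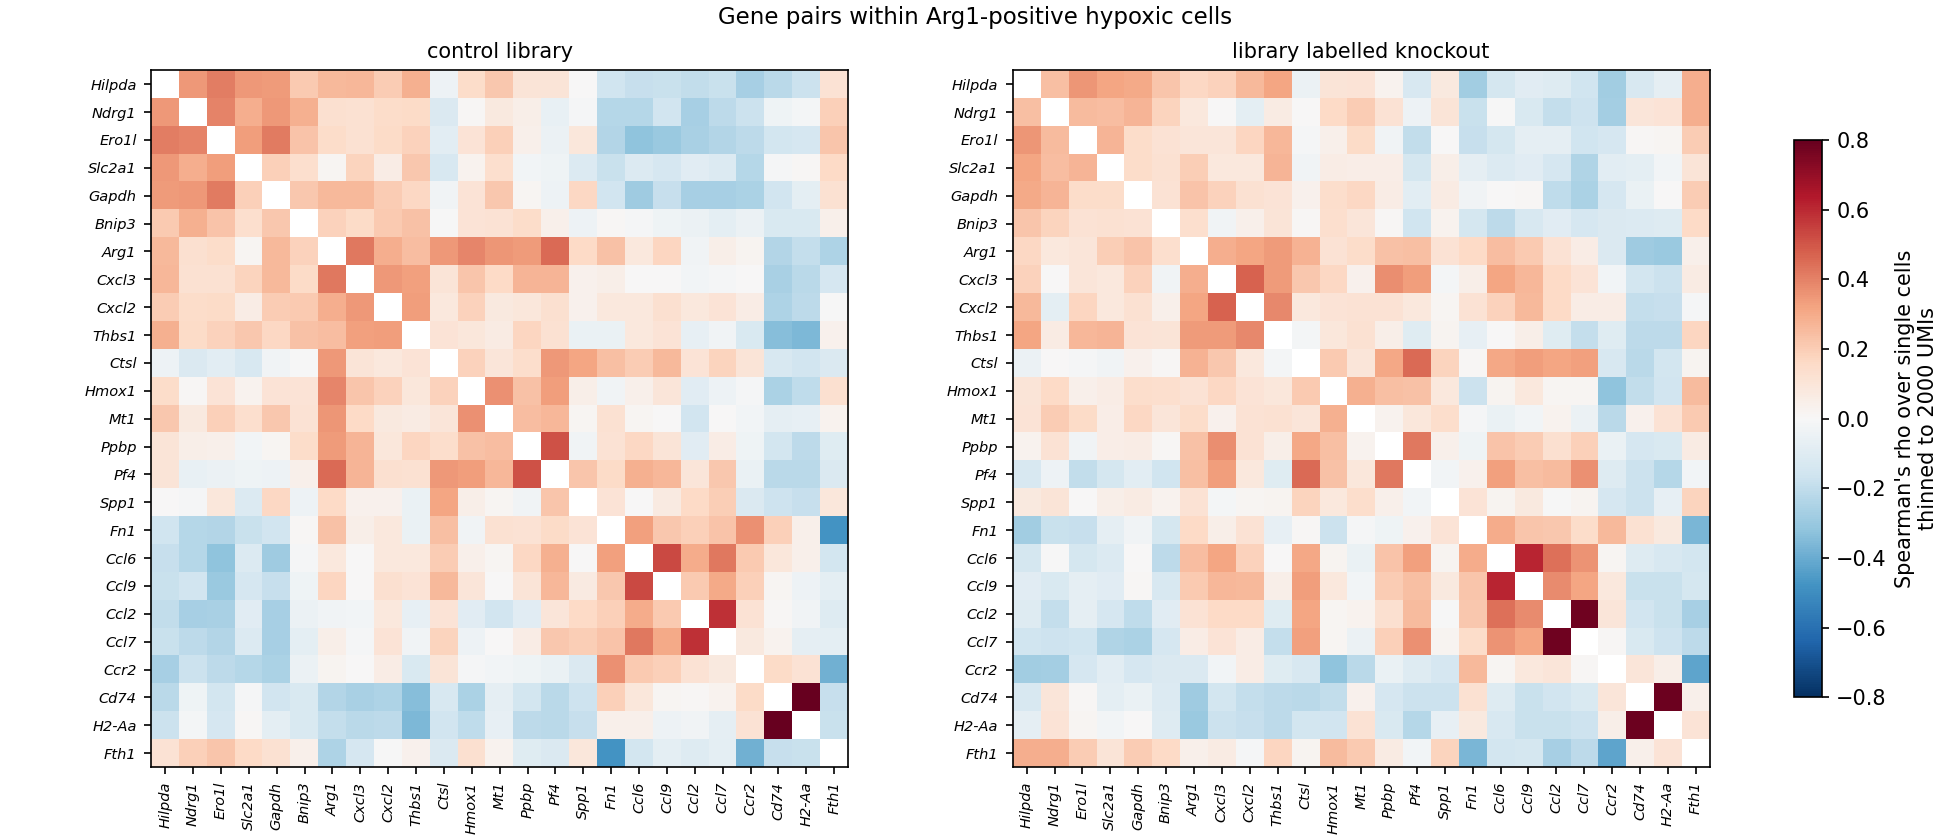
Spearman's rho between 25 genes over single hypoxic cells thinned to 2000 UMIs, control library left and library labelled knockout right, red for positive and blue for negative. The hypoxia genes at the upper left, the Ccl genes and the Cd74 and H2-Aa pair (0.80 and 0.78) form blocks in both panels.

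Between the libraries, the hypoxic cells differed most in interferon-stimulated genes. Of 8372 genes with at least 20 UMIs, 300 (3.58%) were at least 2-fold higher in the library labelled knockout and 112 (1.34%) lower. All 45 measured interferon-stimulated genes were higher and 42 were at least 2-fold higher, with a median of 2.19. Isg15, a ubiquitin-like modifier, was at 58.4 CPM in the control cells and 1431 CPM in the others, 24.5 times as much (19.9 to 30.4). Ifit3, an antiviral protein gene, was at 6.22 and 332 CPM. Cxcl10, an interferon-induced chemokine for activated T cells counted in the chemokine list, was at 37.3 and 972 CPM. Slfn4, a Schlafen gene of myeloid cells, was at 14.3 and 456 CPM. Among Xist-positive cells (45 and 212) the list median was 2.44, with 45 of 45 genes higher, and 818 of 7059 genes (11.6%) were 2-fold higher and 252 (3.57%) lower. Among Y-linked cells, with 115 control cells and 3 of the library labelled knockout, the list median was 0.35 (-2.17 to 2.11). Counts are small among the Xist-positive control cells, with 8 Isg15 UMIs in 45 cells.

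Within each library the same genes were compared with its own low monocytes. Against low monocytes the list median was -0.92 in the control library and -0.08 in the one labelled knockout. Isg15 was at 58.4 against 67.9 CPM in the control library and at 1431 against 704 CPM in the other. Cxcl10 was at 37.3 against 181 CPM and at 972 against 718 CPM. The difference between the libraries had a larger median in the hypoxic cells (2.19) than in low monocytes (1.47), hypoxia-only monocytes (1.43) or macrophages (1.03), and among Xist-positive cells it was 2.44, 1.03 in low monocytes and 1.22 in macrophages. No test of the difference between sets is possible with 1 library each. In the control cells 1 barcode held 76.7% of the Ifit2 UMIs and 72.5% of the Ifit1 UMIs.

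Interferon-stimulated genes share a known motif, the interferon-stimulated response element, searched here as a pair of GAAA runs 2 bases apart. Of 46 listed genes 34 had a RefSeq window, and 15 of these (44.1%) held it in the 250 bases before the start, on either strand, against 3.46% of all 27025 genes. The window of Isg15 (chr4:156200819-156201068, minus strand) and that of Ifit3 (chr19:34583279-34583528, plus strand) are printed 5′ to 3′ with the matches in capitals, since these genes showed some of the largest differences between the libraries.
Isg15: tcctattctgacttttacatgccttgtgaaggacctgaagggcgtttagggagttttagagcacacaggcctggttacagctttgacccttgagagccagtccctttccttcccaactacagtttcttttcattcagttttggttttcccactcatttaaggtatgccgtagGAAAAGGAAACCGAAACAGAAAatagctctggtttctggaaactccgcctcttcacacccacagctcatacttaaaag
Ifit3: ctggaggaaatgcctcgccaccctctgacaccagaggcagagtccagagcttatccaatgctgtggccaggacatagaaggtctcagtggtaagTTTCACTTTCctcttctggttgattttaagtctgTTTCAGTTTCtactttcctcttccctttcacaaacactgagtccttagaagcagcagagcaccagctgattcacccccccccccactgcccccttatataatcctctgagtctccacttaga
Isg15 had 3 overlapping matches and Ifit3 had 2, on the opposite strand.

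Some genes of classical monocytes, and the CCR2 ligands, were higher as well. Of 18 monocyte markers 13 were higher, 6 of them by 2-fold, and 5 were lower, with a median of 0.25 (1.00 among Xist-positive cells). Fn1, given above, was among the lower ones. The median of these markers was 0.49 in low monocytes, 0.17 in hypoxia-only monocytes and 0.22 in macrophages. Ly6c2, the classical monocyte marker, was at 30.5 CPM in the control hypoxic cells and 667 CPM in the others, and Plac8 at 417 and 1815 CPM. Both were lower than in the low monocytes of the same library, which had 311 and 1389 CPM of Ly6c2, a gene used to gate them. Of the CCR2 ligands, Ccl7 was at 742 and 3232 CPM, Ccl2 at 2166 and 5603 CPM and Ccl12 at 45.4 and 864 CPM. Of 16 chemokine list genes 7 were at least 2-fold higher and 1, Ccl5, was at least 2-fold lower. The list median was 0.59 in the hypoxic cells, 0.44 in low monocytes, 0.46 in hypoxia-only monocytes and 0.49 in macrophages. The monocyte and chemokine list medians were thus higher in the library labelled knockout in every one of these sets. Among Xist-positive cells Ccl2 was 1.75 higher on the log2 scale and Ccl7 2.58 higher.

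Hypoxia, iron and stress genes were lower in the library labelled knockout. Of 32 measured hypoxia genes 28 were lower, 2 of them by 2-fold, with a median of -0.45, and the median among Xist-positive cells was -0.52 (26 of 31 lower). Ero1l was at 1184 and 504 CPM and P4ha2, a collagen prolyl hydroxylase, at 42.9 and 8.96 CPM. Arg1 itself was at 7455 and 4163 CPM, and at 5459 and 4116 CPM among Xist-positive cells. The same list was near level between the libraries in low monocytes (0.11), hypoxia-only monocytes (0.02) and macrophages (0.10). The gate fixed a minimum of these genes in both libraries and left their upper range free, so these levels are a description of the cells it caught.

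Hmox1 was the clearest of the iron genes, at 4440 and 1170 CPM, 3.79 times as high in the control cells (3.62 to 3.98). It remained 1.72 lower on the log2 scale among Xist-positive cells. Mt1 was at 2233 and 682 CPM and Ftl1, the ferritin light chain, at 16934 and 9819 CPM. Of 18 redox and iron genes 15 were lower and 5 were 2-fold lower, with a median of -0.51. Of 17 genes of the endoplasmic reticulum and amino acid stress list 16 were lower and 4 were 2-fold lower, with a median of -0.61. Trib3, a target of that response, was at 24.9 and 3.69 CPM. In low monocytes the medians were 0.14 for the redox and iron list and 0.05 for the stress list, and in macrophages 0.07 and 0.08. In hypoxia-only monocytes they were -0.30 and 0.08, so redox and iron genes were lower there too (14 of 19 genes). Among Xist-positive hypoxic cells the medians were -0.53 and -0.46. Hist1h1c, a linker histone gene, was at 236 and 44.8 CPM, and Lyz2 headed the lower genes as given above.

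MHC class II genes differed between the libraries in opposite directions in the hypoxic cells and in some of the other sets. Of 7 measured genes all were higher in the library labelled knockout, with a median of 0.29, while all 9 were lower in low monocytes (-0.40) and in macrophages (-0.79). In hypoxia-only monocytes 5 were higher and 4 lower, with a median of 0.03. Among Xist-positive cells the medians were 0.65 in the hypoxic cells, 0.11 in low monocytes and 0.19 in macrophages, so the opposite directions between cell sets were not seen there. The values move with the sex of the cells, and the part of sex in them was not tested further.

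**Figure D5:**
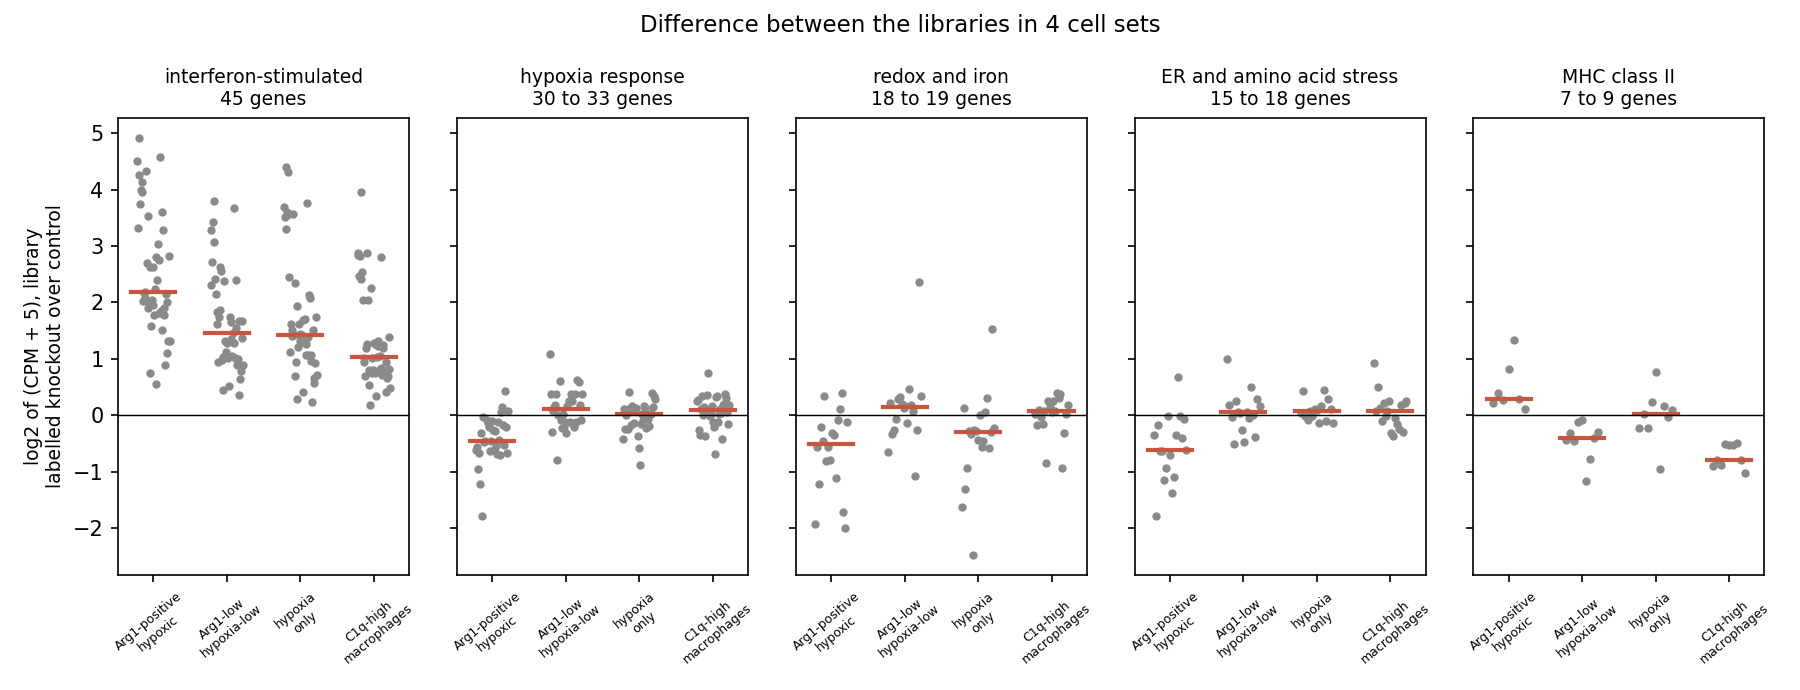
Log2 ratio of (CPM + 5) of the library labelled knockout over the control library in 4 cell sets, 1 grey point per gene with at least 20 UMIs in that set and a red bar at the median, for 5 gene lists. The interferon-stimulated median is 2.19 in the hypoxic cells and 1.03 in macrophages, and the hypoxia median is -0.45 in the hypoxic cells and 0.11 in low monocytes.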

How the data were processed

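The deposited matrices hold UMI counts per gene and barcode, made by the authors with Cell Ranger 3.0.1 on mm10, per the submitters' processing notes; the gene annotation version is not given in the sources used here. Each library was read on its own. The kept barcodes hold 41309578 control UMIs and 46662367 UMIs of the library labelled knockout. The members and gene lists were chosen with earlier results of these data known. Cells were gated by UMI counts, counts were summed per library and cell set, and CPM was computed from the sums. Ratios are log2 of (CPM + 5) for genes with at least 20 UMIs. Poisson, Clopper-Pearson and conditional binomial intervals cover counting error only. With 1 library per group no test was made.

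Doublets were scored with Scrublet in scanpy 1.11.5, kept in the main values and left out in an alternative. The other tools were Python 3.11.15, numpy 2.4.6, scipy 1.17.1, pandas 2.3.3 and matplotlib 3.10.9, and the code was tested on simulated counts. Named genes are those of the lists and markers, the 15 highest and 10 lowest against low monocytes by the smaller ratio of both libraries, and the 10 highest and 10 lowest between the libraries. The ranked genes had no more than 20% of their UMIs in the hypoxic cells, summed over both libraries, in 1 cell. That limit did not cover 1 library alone or the comparison cells. The single-cell shares of Ccl1, Ifit1 and Ifit2 are given for that reason. Promoter windows came from RefSeq.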

Additional observations from a re-analysis of the deposited data

Results flagged for a closer look

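Several gene lists differed between the libraries in opposite directions in the Arg1-positive hypoxic cells and in low monocytes. The median log2 ratio of the library labelled knockout over the control was -0.45 and 0.11 for the hypoxia response list, in the hypoxic cells and in low monocytes respectively. For redox and iron genes it was -0.51 and 0.14, and for endoplasmic reticulum and amino acid stress genes -0.61 and 0.050. In hypoxia-only monocytes the redox and iron median was -0.30, the same direction as in the hypoxic cells. For MHC class II genes it was 0.29 and -0.40, and for cell cycle genes 0.32 and -0.62. Among Xist-positive cells the hypoxia medians were -0.52 and 0.22, those of redox and iron genes -0.53 and -0.15, and those of MHC class II genes 0.65 and 0.11. The cell cycle median among Xist-positive hypoxic cells was -0.28, with 4 genes higher and 8 lower, so its direction turned there. These differences between cell sets were not tested, since each group is 1 library.

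Ccl5, a T-cell chemokine, was 2.16 higher on the log2 scale in hypoxic cells than in low monocytes in the control library and stood at -1.25 in the library labelled knockout. In the control library 1 cell held 78.3% of its UMIs, and the difference was not tested.

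Haemoglobin genes gave 1080 UMIs in 7 hypoxic cells of the library labelled knockout, 1073 of them in 1 cell, against 2 UMIs in 2 control cells.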

How the results depend on the processing

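Usp18 stayed higher in the library labelled knockout under all 12 alternatives run. Restricting to Xist-positive cells moved the log2 ratio of shares from 0.25 to 1.00, the genes 2-fold higher and lower in the library labelled knockout from 300 and 112 to 818 and 252, and the genes 2-fold higher than in low monocytes from 283 to 188. Restricting to Y-linked cells, with 115 and 3 hypoxic cells, gave -2.99, 634, 1422 and 98, and an interferon-stimulated median of 0.35 in place of 2.19. A mitochondrial limit of 5% gave a log2 share ratio of -0.27. The myeloid and dendritic limits, chosen after seeing the data like the haemoglobin limit, gave 0.60 when set on the hypoxic cells but not on the denominator. A pseudocount of 1 CPM gave 257 genes lower in the library labelled knockout and 512 lower than in low monocytes (112 and 316 as reported). A minimum of 100 UMIs gave 185 higher, 52 lower, and 209 lower than in low monocytes, with fewer genes measured. Against Arg1-only cells 77 genes were lower and the hypoxia list median over both libraries was 1.71, in place of 1.93. Against hypoxia-only cells 106 were higher and 108 lower, and that median was 0.69. The cause was not tested for the sex, mitochondrial and myeloid settings. No direction reversed for the interferon-stimulated and hypoxia lists. No paired analysis was possible because each group is 1 library. Pooled mice, and 45 control cells in the Xist-positive comparison, limit what these counts show.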

Other observations

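Some lists not described above held only a few high genes. Of 14 checkpoint and adenosine genes, 3 were at least 2-fold higher than in low monocytes in both libraries. Cd274, which encodes PD-L1, was at 119 and 217 CPM against 31.3 and 67.2 CPM, and Nt5e, the ectoenzyme CD73, at 49.1 and 32.1 CPM against 0.711 and 2.21 CPM. The other was Pvr. Of 13 growth factors only Inhba was 2-fold higher in both libraries, and Tgfb1 was at 238 and 277 CPM against 360 and 381 CPM. Of 12 alternative activation genes only Stab1, a scavenger receptor, was 2-fold higher in both. Mrc1, the mannose receptor, was at 295 and 637 CPM against 188 and 147 CPM.

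Of 12 genes known to respond to tissue dissociation, 3 were at least 2-fold higher in both libraries and 1, Ier2, was lower. Hspa1a, a heat shock chaperone, was at 652 and 365 CPM against 97.4 and 55.4 CPM, with UMIs in 57 and 72 hypoxic cells. Fos was at 611 and 445 CPM against 1036 and 813 CPM, while Jun was at 874 and 875 CPM against 549 and 492 CPM.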
